A study of Mus musculus with 4 samples.

Results

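The genes described here mark the cells that build and line the blood vessels of the mouse brain, and the fibroblasts of its coverings: 34 genes chosen by name, each found by its exact gene symbol in the array's annotation. They were read by 37 transcript clusters, out of 33793 clusters and 24515 gene symbols in the whole table. A transcript cluster is a group of probes designed to read a transcript from the same locus. The genes fall into 7 classes by role. These are 6 genes of endothelial junctions and cell surface, 4 endothelial receptor tyrosine kinases, 7 transporters of the blood-brain barrier, 5 other endothelial genes, 5 pericyte genes, 3 smooth muscle genes and 4 genes of meningeal fibroblasts.

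RNA came from dissected whole brains of female 129SV mice aged 5.5 months and was measured on 4 Affymetrix whole-transcript arrays, 2 from wild-type mice and 2 from Adar2-/- siblings. ADAR2, encoded by Adarb1, is an enzyme that turns adenosine into inosine in double-stranded RNA. The knockout was constitutive, so no effect can be placed in a given cell type, and mice of both genotypes carried the pre-edited Gria2 R/R allele, which rescues Adar2-/- mice from early death. The comparison asks whether vessel and meningeal transcripts differ in level when ADAR2 is absent from an otherwise rescued brain.

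Brain capillaries are tubes of endothelial cells joined by tight junctions, which close the gaps between cells and so make up the blood-brain barrier. Nutrients then have to cross through transporters in the endothelial membrane, and other carriers pump foreign molecules back into the blood. Pericytes sit on the capillary wall within the basement membrane, smooth muscle cells wrap the arterioles, and fibroblasts lay down the collagen-rich sheets of the meninges. In RNA of whole brain all these cells are a small minority, and fewer cells of a type cannot be told apart from less of its RNA per cell.

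All values below are log2 signals, so a difference of 1 is 2-fold, and every difference is Adar2-/- minus wild type. The median log2 signal lay between 6.03 and 6.09 on the 4 arrays. Adarb1 itself read 10.50 and 10.45 in the wild-type brains and 9.16 and 8.96 in the Adar2-/- brains, a difference of -1.42 (SE 0.118, unadjusted p = 2.57e-05 and adjusted p = 0.409 in limma) in the direction that the labels give. This is 2.67-fold, and the signal left in Adar2-/- brains was still above that of the Y-linked clusters described next. Whether the probes lie in the deleted part of the gene was not tested. Neuronal markers, read as a check of the tissue, averaged between 11.13 and 11.19 on the arrays. Y-linked transcripts cannot occur in female mice, and their 4 clusters read 3.49 to 4.40, a level without transcript. Apart from a cluster on the strand opposite to Col1a2, every member cluster read above that range on all arrays. The study's methods name 2 wild-type and 2 Adar2-/- RNA samples and do not say outright that each came from a separate animal or whether they were prepared together, so the p-values measure the spread between these samples, which may in part be technical.

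No member passed the test once p-values were adjusted over all 33793 clusters (limma, Benjamini-Hochberg): 0 of 37 member clusters had an adjusted p below 0.05, as had 0% of all clusters, and the lowest adjusted p of a member was 0.834. Without adjustment 3 clusters passed at p below 0.05, all higher in the Adar2-/- brains: Slco1a4 and Slc7a5, which encode transporters of the barrier, and Ly6a, a surface antigen of brain endothelium. That is 8.11% of the members, against a background of 3.64% of all clusters that were higher and 2.31% that were lower at the same threshold. The groups did not overlap, meaning that both arrays of one genotype lay above both of the other, in 10 member clusters that were higher and 2 that were lower in Adar2-/- brains, where 17.7% of all clusters were higher and 16.5% lower in that sense. These member counts were 7 and 6 with each array centred on its median and 12 and 0 after quantile normalization, settings in which the shares of all clusters were not computed. With 2 arrays against 2 an exact permutation test of a single cluster cannot go below a two-sided p of 0.333. Leaving out 1 array changed the count of 3: without Adar2-/- replicate 1 no member passed at an unadjusted p below 0.05, and without wild type replicate 2 the only one was a cluster on the strand opposite to Rgs5, which was not among the 3.

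**Figure D1:**
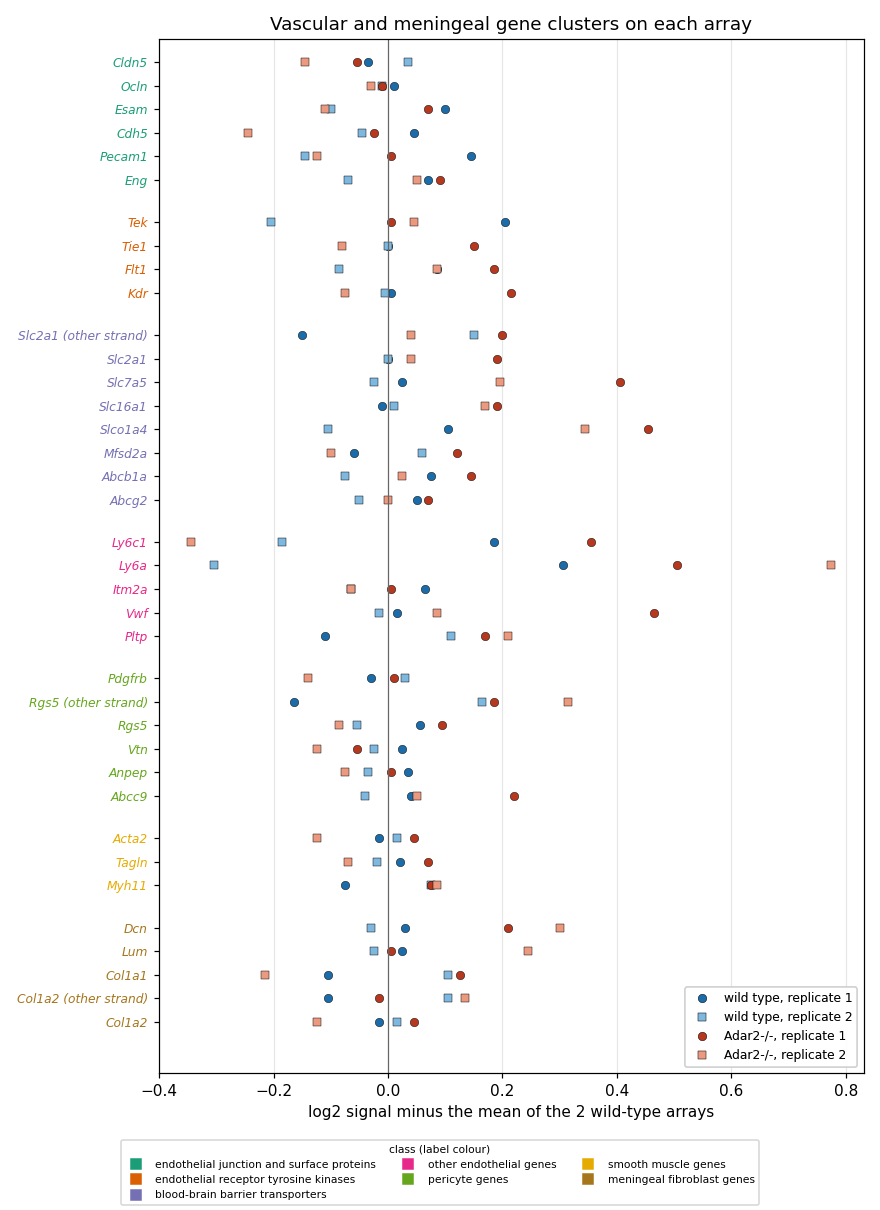
Log2 signal of each of the 37 member clusters on each of the 4 arrays (points), with the mean of the 2 wild-type arrays of that cluster set to 0, and genes grouped and coloured by class. Both Adar2-/- points lie to the right of both wild-type points for 10 clusters, among them Slco1a4, Slc7a5 and Ly6a, and to the left for Cldn5 and Vtn.

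Most members differed little between the genotypes. The log2 differences ranged from -0.14 for Cdh5 to 0.64 for Ly6a with a median of 0.04, where the median over all clusters was 0.01. In 22 of 37 clusters the size of the difference was below 0.1, and in 6 it was 0.2 or more. The precision can be read from the 95% confidence intervals. They excluded a 2-fold difference in either direction for 36 of 37 member clusters, with Ly6a as the exception, and a log2 difference of 0.5 in either direction for 30. Differences smaller than these intervals could not be resolved with 2 arrays of each genotype.

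**Figure D2:**
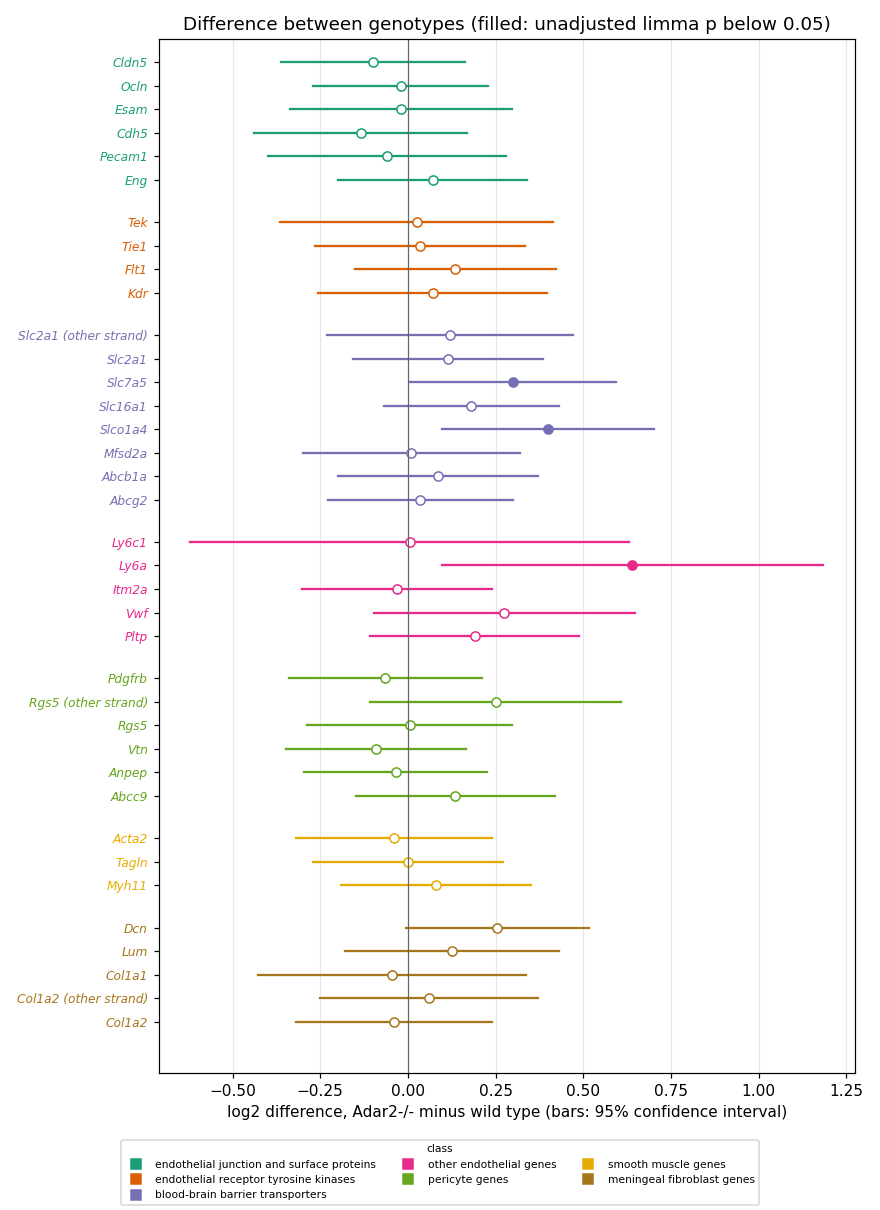
Log2 difference between genotypes (Adar2-/- minus wild type, points) with its 95% confidence interval from limma (bars) for the 37 member clusters, coloured by class, with filled points where the unadjusted p was below 0.05. The 3 filled points are Slc7a5, Slco1a4 and Ly6a, and the intervals of the other 34 clusters include 0.

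All 8 clusters of the 7 genes for carriers of the blood-brain barrier had a log2 difference above 0, with a median of 0.12, where 50.8% of all clusters lay above 0, and in 4 of the 8 the groups did not overlap and were higher, beside 17.7% of all clusters. The 4 receptor tyrosine kinases also lay above 0, and the median of the 5 other endothelial genes was 0.19. With each array centred on its median, which lowers all differences alike, 39.8% of all clusters were above 0, as were 6 of the 8 transporter clusters, without Mfsd2a and Abcg2, and 2 of the 4 kinases. The transporter pattern also rested in part on Adar2-/- replicate 1, which averaged 0.22 above the wild-type mean, where replicate 2 averaged 0.09. On Adar2-/- replicate 2, Mfsd2a (9.65) and Abcg2 (6.65) were not above their wild-type means of 9.75 and 6.65. Slco1a4 encodes an organic anion carrier of the barrier, and its cluster (chromosome 6, positions 141805440 to 141856199 on the minus strand in the deposited annotation, which names no genome build) read 7.20 and 6.99 in wild-type brains against 7.55 and 7.44 in Adar2-/- brains. Both Adar2-/- arrays thus lay above both wild-type arrays, and the difference of 0.40 (SE 0.12, 95% interval 0.10 to 0.70, 1.32-fold) had an unadjusted limma p of 0.0180 and an adjusted p of 0.834. Slc7a5, the large neutral amino acid carrier that brings leucine and tyrosine into the brain (chromosome 8, 121881146 to 121907694, minus strand), read 10.11 and 10.06 against 10.49 and 10.28. The arrays again did not overlap, and the difference was 0.30 (SE 0.12, 95% interval 0.01 to 0.59, 1.23-fold, unadjusted p = 0.0467 and adjusted p = 0.834 in limma). With each array centred on its own median the p of Slc7a5 was 0.0744. With an array left out, its genotype has 1 array and is assumed to vary like the other. The difference of Slc7a5 was then 0.33 (p of 0.123), 0.28 (0.167) and 0.20 (0.155) without wild type replicate 1, wild type replicate 2 and Adar2-/- replicate 1, and 0.41 (0.0311) without Adar2-/- replicate 2. That of Slco1a4 was 0.30 (p of 0.0879), 0.35 (0.104) and 0.46 (0.0566) without wild type replicate 2, Adar2-/- replicate 1 and Adar2-/- replicate 2, and 0.51 (0.0254) without wild type replicate 1. Slc16a1, the carrier of lactate and ketone bodies, read 9.69 and 9.71 in wild-type and 9.89 and 9.87 in Adar2-/- brains. Replicates of either genotype lay 0.02 apart, far closer than the genotypes, yet with the spread moderated over all clusters the difference of 0.18 (SE 0.10) had an unadjusted p of 0.127. An ordinary linear model without that moderation gave an unadjusted p of 0.00612 for Slc16a1 and 0.0777 for Slco1a4.

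Slc2a1, the glucose transporter of the barrier, read 11.27 on both wild-type arrays and 11.46 and 11.31 in the Adar2-/- brains. The groups did not overlap, but the gap between the Adar2-/- replicates was larger than that from the lower of them to the wild type, and the difference of 0.12 (SE 0.11, 95% interval -0.16 to 0.39) did not pass (limma, adjusted p = 0.907). A cluster on the other strand at the same gene differed by 0.12 (SE 0.14) with overlapping groups. The transporters not yet named overlapped as well: Mfsd2a, which imports lysolipids carrying docosahexaenoic acid, differed by 0.01 (SE 0.12), and the drug efflux pumps Abcb1a and Abcg2 by 0.09 (SE 0.12) and 0.04 (SE 0.11). In all 8 transporter clusters Adar2-/- replicate 1 read above Adar2-/- replicate 2, whereas wild type replicate 1 was above replicate 2 in 4.

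Promoters of 3 of these carriers are shown for orientation, all from genes whose groups did not overlap. They are RefSeq promoters on the assembly GRCm38.p6, each 300 bases from 250 before to 50 after the annotated start, written 5′ to 3′ on the gene's strand, with capitals marking the GC box GGGCGG, the E-box CACGTG or the letters of a TATA box, TATAAA, on either strand. Slco1a4 lies on the minus strand at chr6:141856171-141856470, Slc16a1 on the plus strand at chr3:104638414-104638713 and Slc2a1 on the plus strand at chr4:119108495-119108794.
Slco1a4: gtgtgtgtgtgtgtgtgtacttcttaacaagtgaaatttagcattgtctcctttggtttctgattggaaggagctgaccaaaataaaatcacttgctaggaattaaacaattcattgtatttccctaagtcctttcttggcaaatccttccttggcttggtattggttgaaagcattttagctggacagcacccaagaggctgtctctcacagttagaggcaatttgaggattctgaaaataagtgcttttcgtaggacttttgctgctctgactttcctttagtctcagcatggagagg
Slc16a1: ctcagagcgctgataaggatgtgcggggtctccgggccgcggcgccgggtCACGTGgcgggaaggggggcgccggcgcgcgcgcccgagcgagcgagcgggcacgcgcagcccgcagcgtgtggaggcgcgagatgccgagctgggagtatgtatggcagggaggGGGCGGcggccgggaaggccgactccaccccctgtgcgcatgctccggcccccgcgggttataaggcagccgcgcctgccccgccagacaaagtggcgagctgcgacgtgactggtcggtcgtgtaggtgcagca
Slc2a1: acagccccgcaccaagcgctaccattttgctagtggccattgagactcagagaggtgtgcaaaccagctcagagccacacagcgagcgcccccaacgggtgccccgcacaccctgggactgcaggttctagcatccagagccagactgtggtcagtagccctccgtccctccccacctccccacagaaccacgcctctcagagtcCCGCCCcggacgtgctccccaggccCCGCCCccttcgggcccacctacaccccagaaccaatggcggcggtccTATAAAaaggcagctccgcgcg
The promoter of Slco1a4, the transporter gene with the largest difference, held none of these motifs and was 40.7% G and C. That of Slc16a1 held 1 GC box and 1 E-box at 73.7% G and C, and that of Slc2a1 held 2 GC boxes and 1 TATA box at 65.3%. A GC box was thus found for Slc16a1 and Slc2a1 and not for Slco1a4. Of the 34 genes, 22 had 26 promoters in the table. A GC box was found in 14 of the 26 promoters and in 35.7% of all 32851 promoters, a TATA box in 7 and in 13.6%, and an E-box in 1, that of Slc16a1, and in 7.15%. The median share of G and C was 60.3% in the 26 promoters and 52.7% in all. The letters CCGGAAGT, a core bound by ETS factors, were found in none of the 26 and in 3.89% of all promoters, and TGTTTAC, a core bound by forkhead factors, in that of Abcb1a and in 3.65%. Such a match is a description of letters and not of binding. Overlaps between motifs were not removed. No promoter is shown for Esam, Dcn, Cdh5, Col1a1, Ly6a, Tagln, Lum, Myh11, Pdgfrb, Slc7a5, Pecam1 and Vwf.

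Ly6a had the largest difference of all members. It encodes Sca-1, a lipid-anchored surface protein that brain endothelium carries along with many blood-forming cells (chromosome 15, 74994877 to 74997888, minus strand). It read 11.02 and 10.41 in wild-type and 11.22 and 11.49 in Adar2-/- brains, so that the groups did not overlap while the wild-type replicates lay 0.61 apart. The difference was 0.64 (SE 0.22, 95% interval 0.10 to 1.18, 1.56-fold, unadjusted p = 0.0283 and adjusted p = 0.834 in limma). Without wild type replicate 2 it was 0.34 with an unadjusted p of 0.155, while it was 0.78 (p of 0.105) without Adar2-/- replicate 1, 0.51 (p of 0.227) without Adar2-/- replicate 2 and 0.95 (p of 0.0150) without wild type replicate 1. Its neighbour in the same gene family, Ly6c1, read 5.75 and 5.38 in wild-type and 5.92 and 5.22 in Adar2-/- brains. Here the 2 Adar2-/- arrays were the highest and the lowest of the 4, the difference was 0.01 and its SE of 0.25 was the largest among the members. Ly6a and Ly6c1 belong to a family of similar genes whose probes could share targets, although neither cluster was marked for cross-hybridization.

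Vwf, the clotting factor stored in endothelial granules, read 6.95 and 6.92 against 7.40 and 7.02. Adar2-/- replicate 1 stood apart from the other arrays, and the difference of 0.28 (SE 0.15) had an unadjusted limma p of 0.120. It was 0.09 (p of 0.457) without Adar2-/- replicate 1 and 0.47 (p of 0.0207) without Adar2-/- replicate 2, where the only Adar2-/- array left is the one that stood apart. Pltp, a phospholipid transfer protein, read 10.16 and 10.38 against 10.44 and 10.48, a difference of 0.19 (SE 0.12, adjusted p = 0.856) with groups that did not overlap. Itm2a, a membrane protein of brain endothelium, read 9.07 and 8.94 against 9.01 and 8.94, and its groups overlapped with a difference of -0.03 (SE 0.11).

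Junction and surface proteins differed little. Of 6 clusters, 5 had a difference below 0, as had 47.7% of all clusters, the median was -0.04 and none passed the test. After quantile normalization 3 of the 6 were below 0. Cldn5, the main claudin that seals the tight junctions of the barrier, read 7.45 and 7.52 in wild-type and 7.43 and 7.34 in Adar2-/- brains. The groups did not overlap by a margin of 0.02 between the closest arrays, and the difference was -0.10 (SE 0.11, 95% interval -0.36 to 0.16, adjusted p = 0.917). Ocln, the tight junction protein occludin, differed by -0.02 (SE 0.10) and spanned 0.04 over the 4 arrays, the narrowest range of all members. Cdh5, the adherens junction cadherin of endothelium, read 8.21 and 8.12 against 8.14 and 7.92, a difference of -0.14 (SE 0.12) with overlapping groups. The adhesion molecules Pecam1 and Esam differed by -0.06 (SE 0.14) and -0.02 (SE 0.13), and Eng, a co-receptor for TGF-beta family ligands, by 0.07 (SE 0.11).

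The receptor tyrosine kinases, which take the growth factor signals of the vessel wall, did not differ beyond the spread of the arrays. Kdr, the main receptor for VEGF-A in endothelium, read 7.17 and 7.16 in wild-type and 7.38 and 7.09 in Adar2-/- brains. The Adar2-/- replicates thus lay on either side of the wild type, and the difference was 0.07 (SE 0.13, 95% interval -0.26 to 0.40, adjusted p = 0.961). Flt1, a VEGF receptor that also acts as a decoy, differed by 0.14 (SE 0.12). The angiopoietin receptor Tek differed by 0.03 (SE 0.16) and its partner Tie1 by 0.04 (SE 0.12), and in none of the 4 were the groups apart.

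Pericyte genes were level between the genotypes to within the error. Pdgfrb, the receptor through which endothelial PDGF-B holds pericytes on the vessel, read 8.76 and 8.82 in wild-type and 8.80 and 8.65 in Adar2-/- brains, a difference of -0.07 (SE 0.11, 95% interval -0.34 to 0.21, adjusted p = 0.958). The groups overlapped, with Adar2-/- replicate 2 the lowest of the 4 arrays. Rgs5, a regulator of G protein signalling that is abundant in pericytes, differed by 0.01 (SE 0.12) on its own strand. The cluster on the opposite strand read 6.04 and 6.37 against 6.39 and 6.52 and did not overlap, with a difference of 0.25 (SE 0.15, adjusted p = 0.854). Vtn, the adhesive protein vitronectin, read 11.10 and 11.05 against 11.02 and 10.95, a difference of -0.09 (SE 0.10) with groups that did not overlap. Abcc9, a subunit of a potassium channel of pericytes, read 6.91 and 6.83 against 7.09 and 6.92, a difference of 0.14 (SE 0.12) with groups apart by 0.01. Anpep, an aminopeptidase of the pericyte surface, differed by -0.04 (SE 0.11).

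Smooth muscle genes had a median difference of 0. Acta2, smooth muscle actin, read 8.64 and 8.67 in wild-type and 8.70 and 8.53 in Adar2-/- brains, and the difference of -0.04 (SE 0.11, 95% interval -0.32 to 0.24, adjusted p = 0.978) lay well within the gap between the Adar2-/- replicates. Tagln, an actin-binding protein, had equal means in both genotypes (SE 0.11). Myh11, the smooth muscle myosin heavy chain, differed by 0.08 (SE 0.11), and the groups overlapped in all 3.

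Among the fibroblast genes of the meninges Dcn stood apart. It encodes decorin, a small proteoglycan that binds collagen (chromosome 10, 97479500 to 97518162, plus strand), and read 9.30 and 9.24 in wild-type and 9.48 and 9.57 in Adar2-/- brains. The groups did not overlap and the replicates lay close together, but the difference of 0.26 (SE 0.11, 95% interval -0.01 to 0.52, 1.19-fold) had a limma p of 0.0538, just outside the threshold that Slc7a5 was just inside. Under 5 of 12 alternative settings the p of Dcn was below 0.05, between 0.0237 and 0.0482. Col1a1, a chain of type I collagen, read 7.29 and 7.50 in wild-type and 7.52 and 7.18 in Adar2-/- brains, so that the Adar2-/- arrays were the highest and the lowest. Its difference was -0.05 (SE 0.15, 95% interval -0.43 to 0.34, adjusted p = 0.982). Col1a2, the partner chain, differed by -0.04 (SE 0.11), and its second cluster, on the opposite strand and marked for cross-hybridization, read 3.41 to 3.65, within or below the range of the Y-linked clusters. Lum, the proteoglycan lumican, read 5.67 and 5.62 against 5.65 and 5.89, a difference of 0.13 (SE 0.12) with overlapping groups.

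**Figure D3:**
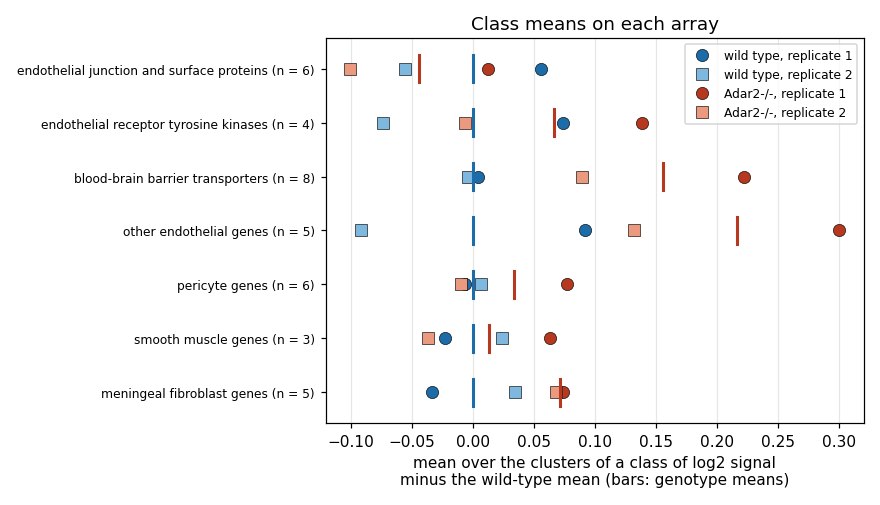
Mean over the clusters of each class of log2 signal minus the wild-type mean of the cluster, on each of the 4 arrays (points), with vertical bars at the genotype means. The transporters were at 0.22 and 0.09 on the Adar2-/- arrays against 0.00 and 0.00 in wild type, and for the junction proteins the arrays of both genotypes were interleaved.

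Averaged over a class, both Adar2-/- arrays lay above both wild-type arrays for the transporters, the other endothelial genes and the meningeal genes. The transporters averaged 0.22 and 0.09 above the wild-type mean on the Adar2-/- arrays, and the 5 other endothelial genes 0.30 and 0.13, where their wild-type arrays lay 0.09 to either side. For the meningeal genes these averages were 0.07 and 0.07 against -0.03 and 0.03. The separation rested on a single gene in each of the last 2 classes, Ly6a (difference 0.64) and Dcn (0.26). Without Ly6a the arrays of the genotypes were interleaved in the other endothelial genes, and without Dcn in the meningeal genes. In the junction, receptor, pericyte and smooth muscle classes the arrays of the genotypes were interleaved. These averages describe members picked by name and carry no test.

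The 2 Adar2-/- arrays also differed from each other in these genes, with a median of 0.12 for replicate 1 minus replicate 2, beside the median of 0.04 between genotypes. Adar2-/- replicate 1 read above replicate 2 in 29 of 37 member clusters (78.4%), against 51.1% of all clusters, and in 20 of the 23 endothelial clusters. In wild type, replicate 1 read above replicate 2 in 23 of 37 (62.2%), against 48.3% of all clusters. On the same arrays the red cell markers took the opposite order in Adar2-/- brains: all 8 clusters read below in replicate 1, and the mean of the list was 7.40 in replicate 1 and 7.95 in replicate 2, with 7.91 and 7.70 in wild type. In red cell transcripts 1 of 8 clusters was lower in Adar2-/- brains at an unadjusted limma p below 0.05, beside 2.31% of all clusters. This was Alas2, an enzyme of haem synthesis, at 8.71 and 7.90 in wild-type and 7.34 and 7.80 in Adar2-/- brains (-0.74, SE 0.29). The list had no common direction: 5 clusters lay below 0 and 3 above, from -0.74 to 0.53. The choroid plexus markers averaged 8.06 and 8.34 in wild-type and 8.15 and 8.24 in Adar2-/- brains with 0 of 12 called, and the border macrophage markers between 5.97 and 6.06 on the 4 arrays with 0 of 8 called. Markers of the pituitary, a gland that can stay attached to a dissected brain, averaged 5.26 and 5.01 against 6.09 and 5.84, and 3 of 11 clusters were higher at p below 0.05 beside 3.64% of all clusters, Prl by 4.12 (SE 0.49), Gh by 3.17 (SE 0.51) and Pomc by 0.51 (SE 0.19). The part of red cell and pituitary RNA in the differences of Slco1a4, Slc7a5, Ly6a and Dcn was not tested.

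**Figure D4:**
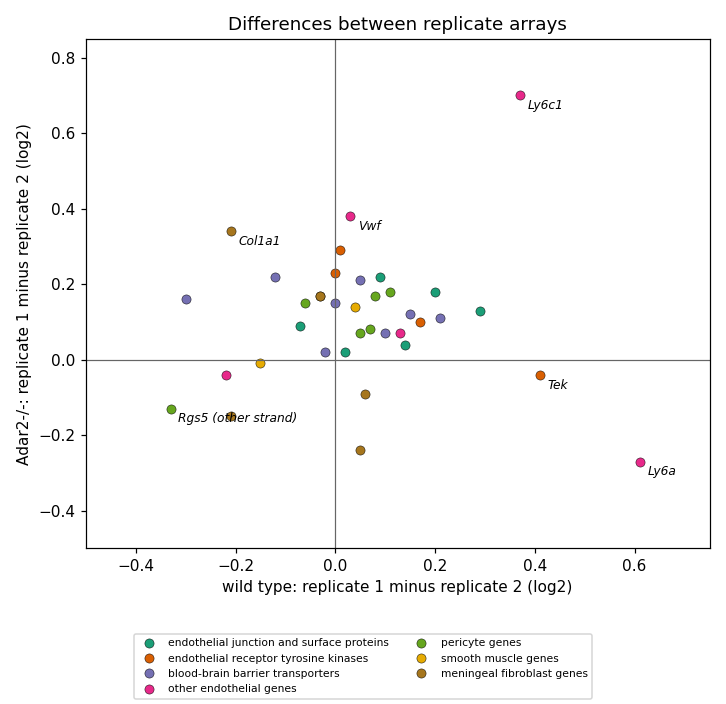
Difference between the replicate arrays of each genotype (replicate 1 minus replicate 2, log2) for the 37 member clusters, wild type on the horizontal and Adar2-/- on the vertical axis, coloured by class. In Adar2-/- 29 of 37 points lie above 0, with Ly6c1 at 0.70, and Ly6a lies farthest to the right at 0.61.

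Genes that act with these members were read from 8 further lists of 129 genes in 141 clusters. Over all of them 4 clusters were higher and 4 lower at an unadjusted limma p below 0.05, none after adjustment, and the median difference was 0.01. The 8 calls are 5.67% of these clusters, where 5.95% of all clusters were called in either direction, so the lists as a whole were at the background. Without wild type replicate 1 the calls were 3 and without Adar2-/- replicate 2 they were 5. Among ligands and receptors of VEGF, angiopoietin, PDGF and TGF-beta signalling, 3 of 22 clusters were called (13.6%, against the same 5.95%). Vegfa, the main growth factor for endothelium, read 8.90 and 8.64 in wild-type and 8.49 and 8.40 in Adar2-/- brains, a difference of -0.33 (SE 0.13, unadjusted p = 0.0470). The related ligand Pgf read 4.98 and 4.92 against 5.37 and 5.34, a difference of 0.41 (SE 0.10, unadjusted p = 0.00810). The VEGF receptors Kdr and Flt1, given above, were not called. Acvrl1, an endothelial receptor for BMP ligands that works with Eng, read 7.03 and 7.01 against 7.38 and 7.27, a difference of 0.31 (SE 0.11, unadjusted p = 0.0293).

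Of 16 clusters of endothelial transcription factors 1 was called (6.25%, near the 5.95% of all clusters). This was Klf15, a zinc finger factor found in many tissues, at 7.41 and 7.48 against 7.91 and 7.95 (0.49, SE 0.10, unadjusted p = 0.00370). Other endothelial markers gave 2 of 28 (7.14%, also near that share). Cd34, a sialomucin of endothelium and blood-forming cells, read 9.97 and 9.85 in wild-type and 9.48 and 9.50 in Adar2-/- brains, a difference of -0.42 (SE 0.11, unadjusted p = 0.00830), and a cluster on the strand opposite to Cd34 differed by -0.19. Selp, the adhesion molecule P-selectin, read 5.04 and 5.01 against 5.35 and 5.27 (0.29, SE 0.10, unadjusted p = 0.0348). The endothelial markers thus did not share a sign at the unadjusted threshold, since Cd34 was lower where Ly6a was higher. Other mural markers gave 2 of 13 (15.4%, against 5.95% of all clusters), both lower. Most of that list went the other way, with 7 of the 13 clusters above 0 and a median of 0.04. Tbx18, a transcription factor of pericytes and smooth muscle, read 6.56 and 6.26 against 6.07 and 5.97 (-0.39, SE 0.14, unadjusted p = 0.0305). Ifitm1, an interferon-induced membrane protein, read 6.07 and 5.89 against 5.60 and 5.65 (-0.36, SE 0.11, unadjusted p = 0.0223). All 8 had an adjusted p of 0.834.

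No cluster was called in the lists of Wnt and Norrin signalling, which sets up the barrier in endothelium (0 of 16, median -0.05), Notch signalling in vessels (0 of 10, median -0.14), the basement membrane (0 of 13, median 0.05) and further meningeal and fibroblast markers (0 of 23, median 0.05). Over all clusters 5.95% were called in either direction, a share at which lists this short would hold few calls or none. Each of these lists had a cluster of lowest p. In the Wnt list this was Apcdd1, a Wnt target and inhibitor, at 9.34 and 9.11 in wild-type and 9.05 and 8.80 in Adar2-/- brains (-0.30, SE 0.14, unadjusted p = 0.0805). The Notch ligand Jag1 read 7.06 and 7.01 against 6.79 and 6.83 (-0.23, SE 0.10, unadjusted p = 0.0722). Neither list had a member past the threshold. The laminin chain Lama2 read 7.43 and 7.45 against 7.62 and 7.70 (0.22, SE 0.10, unadjusted p = 0.0797). In the meningeal list it was a cluster on the strand opposite to the proteoglycan gene Bgn, at 7.06 and 7.24 against 7.47 and 7.33 (0.25, SE 0.12, unadjusted p = 0.0861), while the cluster on the strand of Bgn itself differed by -0.07.

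**Figure D5:**
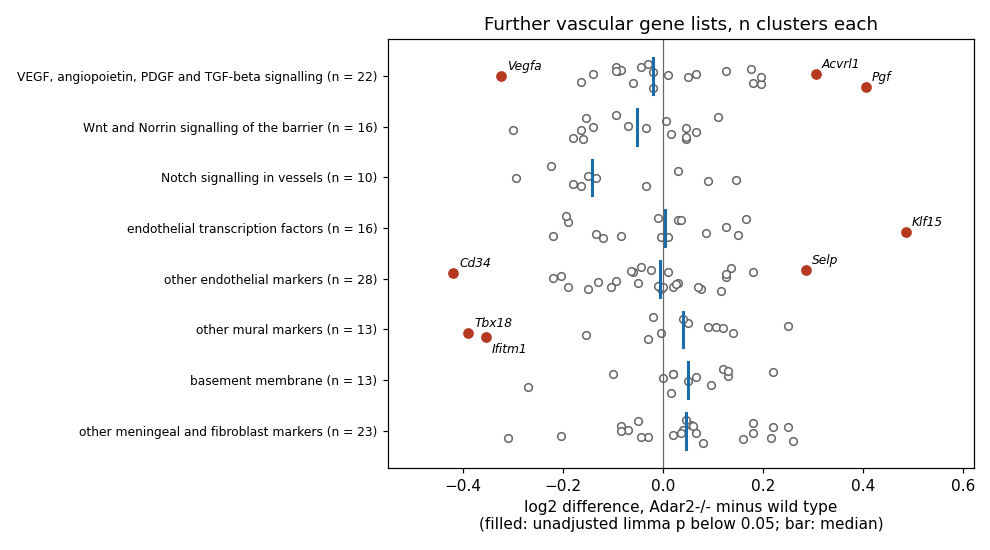
Log2 difference between genotypes for the 141 clusters of the 8 further vascular and meningeal lists (points, spread vertically at random within a list), with filled, named points where the unadjusted limma p was below 0.05 and a bar at the median of each list. The 8 filled points are 4 higher (Pgf, Acvrl1, Klf15, Selp) and 4 lower (Vegfa, Cd34, Tbx18, Ifitm1), and the list medians run from -0.14 to 0.05.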

How the data were processed

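Microarray signals of 4 whole-brain RNA samples were analysed, 2 per genotype, with the genotype and replicate number of each array taken from its title. RNA was extracted with TriFast, labelled for whole-transcript arrays and hybridised to Affymetrix chips by a core facility. Per the submitters' processing notes Affymetrix Expression Console and RMA were used, without versions. The deposited table holds normalized log2 signals per cluster and array, to 2 decimals, with no detection calls, scan dates or genome build. RMA sets arrays to a common distribution and tends to compress differences at low signal. Ratios, fold changes and p-values computed by the authors are also deposited and were not used.

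The log2 signals were fitted as deposited with lmFit and eBayes (limma 3.58.1, R 4.3.3) with genotype as the term, on all 33793 clusters without filter, with Benjamini-Hochberg adjustment over all of them. The prior SD was 0.125 on 3.79 degrees of freedom. The fit was tested on simulated data. Precision is limited by the number of arrays. Members were matched by symbol; all 34 were in RefSeq (GRCm38.p6) and all 37 clusters overlapped their gene there. 3 clusters lie on the strand opposite to their gene, and gene strand was known for 25. Values on every array were given for members with an unadjusted p below 0.05, for those with groups apart by 0.3 or more, for the 3 widest ranges, for Cldn5, Slc2a1, Kdr, Pdgfrb, Acta2 and Col1a1, for list genes with an unadjusted p below 0.05 (else the lowest p), and, chosen after their values were seen, for other members. The members and lists were chosen with earlier results of these data known. Replicate numbers did not pair the arrays: deviations of equal numbers correlated at r = 0.0516 over all clusters. 1 marker of the red cell list is not reported here. 12 alternatives were run.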

Additional observations from a re-analysis of the deposited data

How the results depend on the processing

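No member cluster reached an adjusted p below 0.05 under any of the 12 alternatives, and the lowest adjusted p of a member under any of them was 0.762. The count of 3 members with an unadjusted p below 0.05 was 4 (with Dcn added) after quantile normalization, above the median signal, with an intensity trend and without cross-hybridizing clusters, 3 with 1 cluster per symbol, and 2 after median centring (Slco1a4 and Ly6a). It was 2 in the ordinary linear model (Slc16a1 and Dcn, none of the 3) and 1 with the replicate number as a block (Slco1a4); the numbers do not pair these arrays. Leaving out 1 array gave 0 (without Adar2-/- replicate 1) to 2. For members whose groups do not overlap the count of 12 became 20 to 29 when an array was left out, since a lone array separates more easily. The 10 higher and 2 lower clusters were 7 and 6 after median centring and 12 and 0 after quantile normalization. The shares of all clusters without overlap in these settings were not computed. Centring also lowered the share of all clusters above 0 from 50.8% to 39.8%, so these changes are not read as a result about the members. Over all clusters, 3.64% higher and 2.31% lower at p below 0.05 became 2.37% and 3.64% after centring, and 2.65% and 2.79% after quantile normalization. The median difference of 0.04 was 0 (without Adar2-/- replicate 1) to 0.10 (without Adar2-/- replicate 2) on leaving out an array and -0.01 after centring. Centring likewise moved the median over all clusters from 0.005 to -0.035. The 8 calls in the further lists were 3 (without wild type replicate 1) to 9 on leaving out an array, 5 without Adar2-/- replicate 2, and 6 to 11 otherwise. Of the single member values, 379 kept their side of the threshold and their direction, 15 were no longer below 0.05, 8 came below it and 35 changed sign while not called in either setting. No called value reversed. The cause of these shifts was not tested. Without detection calls, signals near those of the Y-linked clusters cannot be told from background.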

Other observations

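Other cells that adjoin the vessels were read by markers of their own. The astrocyte markers, whose end feet cover the capillaries, averaged 9.66 and 9.61 on the wild-type arrays and 9.51 and 9.50 on the Adar2-/- arrays. In 1 of 7 clusters the unadjusted limma p was below 0.05, beside 2.31% of all clusters that were lower at this threshold, and this was the gap junction protein Gja1, which read 10.66 and 10.56 against 10.30 and 10.38 (-0.27, SE 0.11, unadjusted p = 0.0473, adjusted p = 0.834). The water channel Aqp4 of the end feet read 9.76 and 9.74 against 9.42 and 9.64 (-0.22, SE 0.12, adjusted p = 0.847), and Gfap, the intermediate filament of reactive astrocytes, differed by 0.01 (SE 0.18). The microglia markers averaged 7.85 and 7.86 against 7.72 and 7.77, with 0 of 8 called.

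The peripheral nerve markers gave 2 of 5 calls of opposite sign, where 5.95% of all clusters were called in either direction, Pmp2 at 0.42 (SE 0.15, unadjusted p = 0.0361 by limma) and Egr2 at -0.41 (SE 0.10, unadjusted p = 0.00720). Pmp2 read 3.72 to 4.40, within the range of the Y-linked clusters. Egr2 is also an activity-dependent gene of neurons. None of these clusters had an adjusted p below 0.05.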
